A study of Mus musculus with 10 samples.

Results

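The genes described here encode the peroxisome assembly proteins and the peroxisomal enzymes and transporters that handle lipids, in interscapular brown adipose tissue (iBAT) of mice that lost cardiolipin synthase in adipocytes. They were chosen by symbol as 32 of the 15075 genes with a value, and not by their level. Of these, 13 serve peroxisome biogenesis (Pex2, Pex3, Pex5, Pex6, Pex7, Pex10, Pex11a, Pex11g, Pex13, Pex14, Pex16, Pex19 and Pex26). Another 15 serve fatty acid oxidation and transport (Acox2, Acox3, Ehhadh, Hsd17b4, Acaa1a, Acaa1b, Abcd2, Abcd3, Crat, Crot, Phyh, Decr2, Pecr, Amacr and Scp2), and 4 serve ether lipid synthesis (Gnpat, Agps, Far1 and Far2). Each of 5 Control and 5 AdCKO mice gave 1 RNA-seq library. AdCKO mice carried Adipoq-Cre together with the floxed Crls1 allele (Crls1 f/f), in which exon 4 lies between loxP sites. Control mice carried Crls1 f/f without Cre and are labelled wild-type, so the floxed allele was shared by both groups and Cre was not. All mice were C57BL/6, were 20 weeks old and were housed at room temperature. The Adipoq promoter drives Cre in adipocytes of white as well as brown fat, and the RNA came from whole tissue, in which other cells kept Crls1.

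Peroxisomes are organelles bounded by a single membrane that shorten very long and branched fatty acids, make the initial bonds of ether lipids such as plasmalogens, and form and remove hydrogen peroxide. Their matrix proteins are made in the cytosol and imported folded, by receptors that read a short signal at the C-terminus or, less often, near the N-terminus. Brown fat is rich in peroxisomes, which hand shortened acyl chains to its mitochondria.

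The 2 import signals were searched in the genes described here, many of which matched neither. Their codons are shown because they encode what the import receptors read. The C-terminal signal was searched as codons for serine, alanine or cysteine, then lysine, arginine or histidine, then leucine or methionine, directly before the stop codon, in the longest complete coding sequence of each gene (Gencode vM1 on NCBIM37, the same assembly as mm9). It was found in 7 of the 15 oxidation genes (46.7%), 1 of the 4 ether lipid genes and 0 of the 13 biogenesis genes, against 0.56% of 10542 tested genes with a complete coding sequence. The last 30 coding bases of 7 of these 8 genes follow, 5′ to 3′ on the coding strand, with the 3 signal codons in capitals and the stop codon at the end. In each gene the capitals lie in coding sequence within 1 exon, on mm9 at chr2:30258101-30258109 (Crat, minus strand), chr5:8966855-8966863 (Crot, minus), chr16:21762160-21762168 (Ehhadh, minus), chr17:26219824-26219832 (Decr2, minus), chr1:72305925-72305933 (Pecr, minus), chr4:107717358-107717366 (Scp2, minus) and chr8:127413204-127413212 (Gnpat, plus).
Crat: ctccagaaccaccccaggGCCAAGCTCtga
Crot: atacagctgatgaacaccGCTCATCTTtag
Ehhadh: ttggcaggaccccatagcAGCAAACTGtga
Decr2: gagtttgaatccttctctGCTAAGCTGtag
Pecr: gaatcttttaagaagaaaGCCAAGCTCtaa
Scp2: cagcttcagccgggcaaaGCTAAGCTGtga
Gnpat: ataggaaaaccagccactGCAAAACTAtaa

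Pex5 is the receptor for this signal, and Pex7 is the receptor for the N-terminal signal. The N-terminal signal was searched within the initial 40 codons as codons for arginine or lysine, then leucine, valine or isoleucine, any 5 residues, histidine or glutamine, and leucine or alanine. It was found in 5 of the 32 genes (15.6%), against 0.825% of the 10542 tested genes. Among the 5 were Phyh and both thiolase genes, whose stretches follow with the codons of the fixed residues in capitals. They lie in coding sequence within 1 exon, at chr2:4840140-4840166 (Phyh, plus strand), chr9:119250639-119250665 (Acaa1a, plus) and chr9:119066080-119066106 (Acaa1b, minus). The remaining 2 were Pex11a and Far2. Agps had no match within these 40 codons, which does not show that it lacks the signal. A match is a description of the letters and not proof of import.
Phyh: CGGCTGcaggtccttctgggaCACCTC
Acaa1a: CGGCTGcaggtagtgctgggcCACCTG
Acaa1b: CGGCTGcaggtagtgctgggtCACCTG

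Deposited values are normalized reads per kb of counted exon, so levels can be compared between genes per length, but they are not counts and the depth of each library is unknown. No value was 0 and the values did not fall on whole-read steps. Any further transformation behind them is not given in the sources used here, so changes of low genes such as Acox2, Agps, Far1 and Far2 may be understated beyond the effect of the pseudocount. Values are given below in the order of replicates 1 to 5 of each group, with means ± SD (n = 5 mice per group). A gene was called at a limma adjusted p under 0.01, from log2(value + 1), a scale on which changes of low genes come out too small, and 11244 genes with a mean of at least 10 in either group were tested. Crls1, which encodes the deleted enzyme, measured between 813 and 1291 in Control and between 193 and 249.2 in AdCKO, and thus matched the labels. The brown adipocyte gene Ucp1 averaged 36912 ± 8713 in Control and 14069 ± 4478 in AdCKO, and Adipoq averaged 5964 ± 734 and 4185 ± 742, so both defining markers of the labelled tissue were present in each group. Summed markers of other cells moved with genotype. The macrophage sum lay between 669 and 2143 in Control and between 8070 and 10912 in AdCKO (11 of 12 markers higher), and the fibroblast sum between 968 and 1282 and between 4134 and 5835 (6 of 6 higher). The adipocyte sum lay between 180477 and 216074 and between 122891 and 147292 (5 of 9 lower and 1 higher), and the brown adipocyte sum between 63265 and 86731 and between 20045 and 41839 (5 of 10 lower and 1 higher). Most of the adipocyte sum was Fabp4, with means of 147241 in Control and 108235 in AdCKO. Fabp4 was not called (limma adjusted p = 0.0205), although its groups did not overlap. Endothelial markers overlapped between the groups, from 1610.5 to 1981 and from 1652 to 2245. Lymphocyte markers were low, from 36.7 to 61.0 and from 44.3 to 227, where the highest sum was that of AdCKO replicate 1. Skeletal muscle markers stood apart within AdCKO, at 7298, 28884 and 11143 in replicates 1, 2 and 4 but 175 and 161 in replicates 3 and 5, against 128 to 163 in Control. Fewer adipocytes and less RNA of these genes per adipocyte cannot be told apart in whole tissue. The part of these cell markers in the results below was not tested, apart from the fits that take skeletal muscle markers into account.

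Most of the peroxisomal genes were lower in AdCKO iBAT. Of the 31 that could be tested, 24 were called lower, 3 were called higher and 4 (Pex5, Acox3, Abcd2 and Agps) were not called, while 28.0% of all tested genes were called lower, 25.6% higher and 53.6% in either direction. The 3 that rose were Acox2, Acaa1b and Far1. The values of the groups did not overlap for 23 of the 31, against 50.9% of all tested genes. The median log2 fold change of the 31 was -0.55, against -0.01 for all tested genes. The adipocyte markers had a median of -0.62 and the brown adipocyte markers of -0.70, so a fall of this size was not particular to the peroxisomal genes. The remaining gene, Far2, lay under the minimum level. Library totals of normalized reads were 7615403 to 8171138 in Control and 5419800 to 5843024 in AdCKO. When every library was rescaled to the same total, the median of all genes moved to 0.47, and the split became 10 peroxisomal genes lower and 8 higher, against 9.57% and 61.4% of all genes. Far2 passed the minimum level on that scale, so 32 peroxisomal genes were tested there, and Far2 was 1 of the 8. A factor per library shifts all genes nearly alike, so the distance from the median of all genes can hardly change with it. As deposited this distance had a median of -0.54 for the peroxisomal genes, and 27 of 31 lay below the median of all genes. With quantile normalization, which is not such a factor, it was -0.43 and 24 of 31 lay below. Median log2 fold changes on that scale were -0.53 for the peroxisomal genes, 0.18 for adipocyte markers and -0.25 for brown adipocyte markers.

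**Figure D1:**
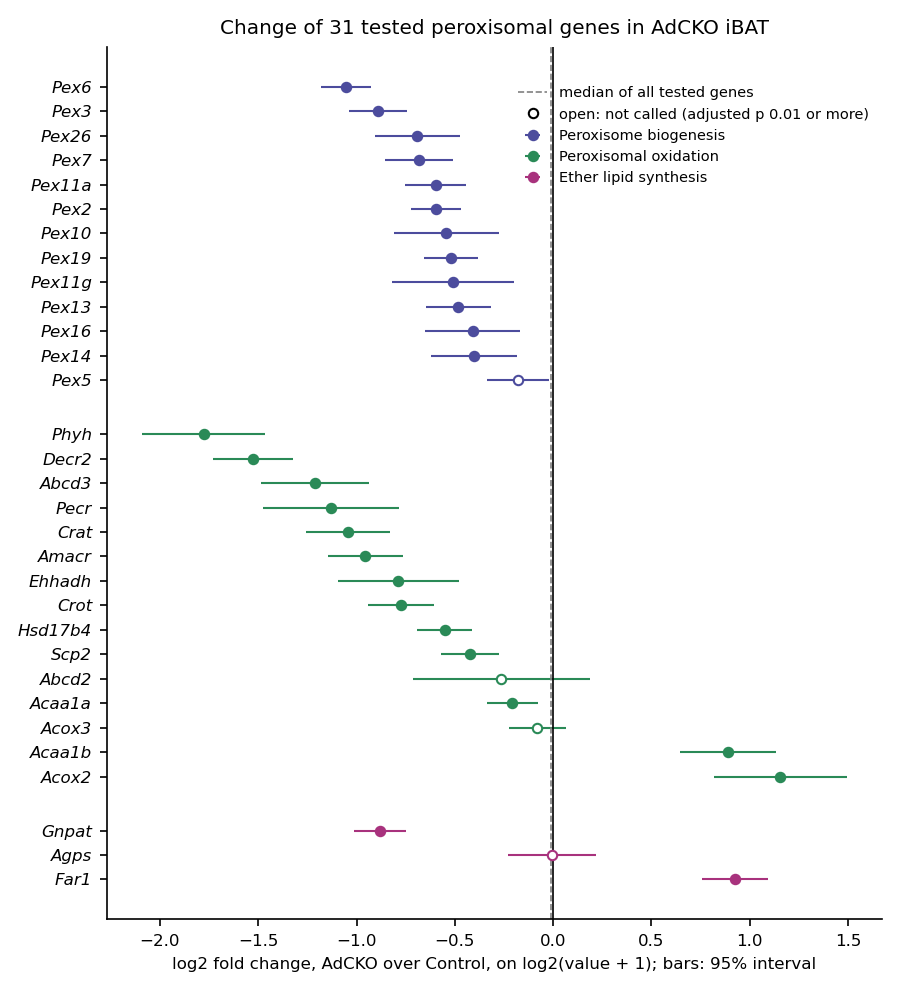
Log2 fold change (AdCKO over Control, on log2(value + 1)) of the 31 tested genes by role, with bars for the 95% interval from limma. Filled points were called at an adjusted p under 0.01 and open points were not. As deposited, 12 of 13 biogenesis genes lay to the left of 0 as filled points, and Acox2, Acaa1b and Far1 lay to the right. After rescaling to 1 total, Pex5, Pex14, Pex16, Acox3, Acaa1a, Abcd2, Scp2 and Agps changed sign.

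By role, the counts and ranges were as follows, and differences between the roles were not tested. Of the 13 biogenesis genes, 12 were called lower and 0 called higher, with log2 fold changes from -1.05 (Pex6) to -0.18 (Pex5) and a median of -0.54. Of the 15 oxidation genes, 11 were called lower and 2 called higher, with a range from -1.78 (Phyh) to 1.15 (Acox2), with a median of -0.77. Of the 3 ether lipid genes tested, 1 was lower, 1 was higher and 1 was not called, with a median of -0.01. Once libraries were rescaled to 1 total, the biogenesis split became 2 lower and 1 higher, the oxidation split 7 lower and 4 higher, and the ether lipid split 1 lower and 3 higher. Of these 3, Far2 (limma log2 change 0.56, adjusted p = 0.00929) was not tested as deposited and passed the minimum level only through the rescaling. The 10 genes still called lower on that scale were Pex3, Pex6, Phyh, Decr2, Abcd3, Pecr, Crat, Amacr, Crot and Gnpat. Summed over genes, oxidation values spanned 13948 to 15272 in Control and 7151 to 8706 in AdCKO, and biogenesis values 4328 to 4888 and 2958 to 3273. No class sum overlapped between the groups as deposited.

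Peroxisomes receive their membrane proteins through Pex19, the soluble chaperone of these proteins, and Pex3 and Pex16, which receive it at the membrane. Pex3 measured 301, 286, 256, 311 and 308 in Control and 163, 151, 162, 150.5 and 158 in AdCKO. Every AdCKO library lay below every Control library, and the AdCKO values spanned a narrow range. The mean fell from 292 ± 22.7 to 157 ± 6.01 (limma log2 change -0.89, SE 0.07, adjusted p = 3.23e-07). Of its annotated exon bases, 5.25% overlap exons of Adat2 on the opposite strand. Pex19, the most abundant biogenesis gene, spanned 975 to 1137 in Control and 701 to 765 in AdCKO (limma log2 change -0.52, adjusted p = 1.57e-05). Pex16 ranged from 422 to 697 and from 395 to 435, so that the groups overlapped, with a log2 fold change of -0.41 (limma adjusted p = 0.006). Its call was lost without Control replicate 3 or 4 or without AdCKO replicate 1, 3, 4 or 5 (adjusted p up to 0.0153).

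Matrix proteins enter through their receptors, the docking proteins Pex13 and Pex14, and the ubiquitin ligase subunits Pex2 and Pex10, which mark receptors for recycling. The C-terminal signal receptor Pex5 measured 343, 380.4, 363, 393 and 425 in Control and 343, 324, 369, 322 and 319.5 in AdCKO. These groups overlapped, with a log2 fold change of -0.18 (95% interval -0.34 to -0.02) and a limma adjusted p of 0.043, and Pex5 was the only biogenesis gene not called. The N-terminal signal receptor Pex7 measured 206, 218, 187, 191 and 211 in Control and 116, 131, 121, 117 and 147 in AdCKO. Its groups did not overlap, and its mean fell from 202 ± 13.05 to 126 ± 13.1 (limma log2 change -0.68, SE 0.08, adjusted p = 1.06e-05). Pex13 ranged from 341 to 396 and from 231 to 293 without overlap (limma log2 change -0.48, adjusted p = 0.000139). Pex14 ranged from 425 to 613 and from 354 to 439.7, with overlap (limma log2 change -0.40, adjusted p = 0.00361). Its call was lost without Control replicate 4, Control replicate 5 or AdCKO replicate 4 (adjusted p up to 0.0114), and 28.3% of its annotated exon bases overlap a non-coding transcript on the opposite strand.

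The ubiquitin ligase gene Pex2 varied little within groups. It measured 196, 189, 193, 195 and 201 in Control and 136, 128, 136, 123 and 119.5 in AdCKO. The spread within each group was small against the gap between them, and the mean fell from 195 ± 4.16 to 129 ± 7.44 (limma log2 change -0.60, SE 0.06, adjusted p = 2.48e-06). Pex10 ranged from 79.0 to 112 and from 54.5 to 80.8, so that its groups overlapped (limma log2 change -0.54, adjusted p = 0.00197).

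Used receptors are pulled out of the membrane by an ATPase complex that contains Pex6 and is anchored by Pex26. The largest fall among biogenesis genes was that of Pex6 (chr17:46848412-46862490, plus strand), which measured 385, 397, 369, 386 and 399.8 in Control and 182, 187, 192, 172 and 199 in AdCKO. Every AdCKO library lay far below every Control library. The mean fell from 387 ± 12.2 to 186 ± 10.3 (limma log2 change -1.05, SE 0.06, adjusted p = 3.71e-08). Pex26, the least abundant biogenesis gene, ranged from 32.8 to 39.7 and from 18.3 to 26.2 without overlap (limma log2 change -0.69, adjusted p = 6.4e-05).

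The Pex11 genes, which shape the membrane for peroxisome division, were both called lower. Pex11a measured 384, 363, 322, 375 and 335 in Control and 217, 243, 233, 224 and 255 in AdCKO. The groups did not overlap, and the mean fell from 355 ± 26.4 to 234 ± 15.2 (limma log2 change -0.60, SE 0.07, adjusted p = 1.28e-05). Pex11g measured 101, 135, 105, 93.3 and 99.4 in Control and 57.1, 76.7, 68.3, 73.1 and 102 in AdCKO. AdCKO replicate 5 lay inside the Control range, and the fall of 0.51 on the log2 scale (SE 0.14, adjusted p = 0.00721 in limma) was no longer called when any library other than Control replicate 4 or AdCKO replicate 5 was left out (adjusted p up to 0.0191).

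**Figure D2:**
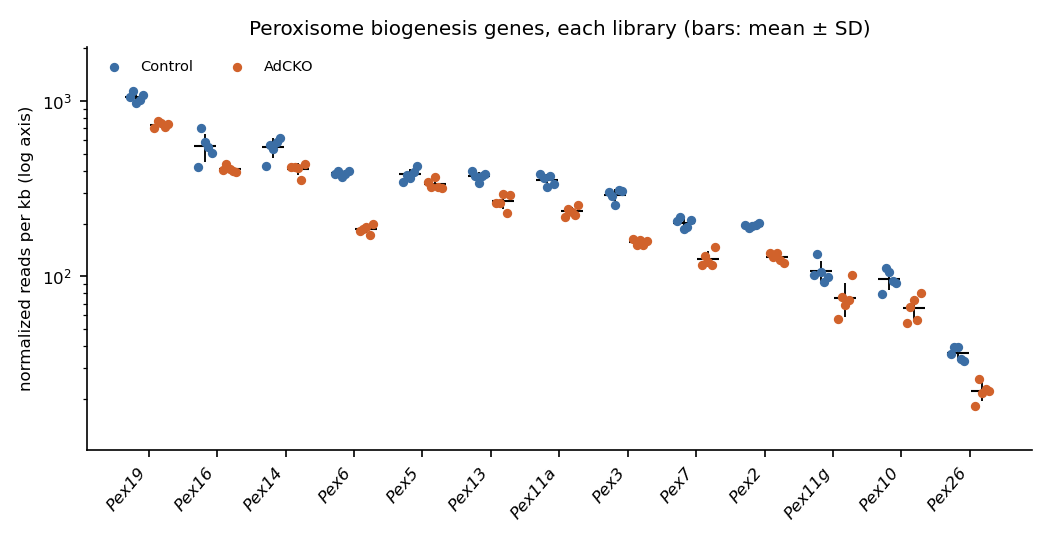
Normalized reads per kb (log axis) of the 13 biogenesis genes in each library, in order of Control level, with the mean ± SD of 5 mice per group. AdCKO values lay below Control values without overlap for 8 genes, and overlapped for Pex5, Pex10, Pex11g, Pex14 and Pex16.

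Branched fatty acids such as phytanic acid are shortened by alpha-oxidation, which begins with the hydroxylase Phyh, and need a change of handedness by the racemase Amacr before beta-oxidation. Phyh (chr2:4840042-4859789, plus strand), whose N-terminal signal is printed above, had the highest Control level of the 32 genes and the largest change. It measured 4577, 4258, 4203, 3698 and 3953 in Control and 1002, 1120.4, 1133, 1089 and 1821 in AdCKO. AdCKO replicate 5 stood above the other AdCKO libraries but below every Control library. The mean fell from 4138 ± 331 to 1233 ± 333, or 29.8% of Control (limma log2 change -1.78, SE 0.14, adjusted p = 5.44e-07), and Phyh moved from the highest level in Control to the rank of 3 in AdCKO, below Scp2 and Crat. Without AdCKO replicate 5 its log2 fold change was -1.93. Amacr measured 169, 173, 133, 161 and 166 in Control and 76.6, 83.0, 89.9, 72.4 and 88.7 in AdCKO. The groups did not overlap, and the mean fell from 160.3 ± 15.8 to 82.1 ± 7.59 (limma log2 change -0.95, SE 0.09, adjusted p = 1.6e-06).

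Unsaturated acyl chains are prepared by the reductases Decr2 and Pecr, which both end in the C-terminal signal codons shown above. Decr2 (chr17:26218156-26227109, minus strand) measured 334, 301, 303, 317 and 336 in Control and 101, 97.3, 131, 97.9 and 126 in AdCKO. All AdCKO libraries lay under 131 and all Control libraries above 301, and the mean fell from 318 ± 16.6 to 111 ± 16.4 (limma log2 change -1.53, SE 0.09, adjusted p = 7.31e-08). Decr2 had the smallest p among the oxidation genes. Pecr ranged from 89.7 to 157 and from 44.0 to 63.7 without overlap (limma log2 change -1.13, adjusted p = 5.24e-05), and 11.5% of its annotated exon bases overlap a lincRNA on the opposite strand.

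Shortened chains leave the peroxisome as carnitine esters made by Crat, which also acts in mitochondria, and Crot. Crat measured 2998, 3198, 2678, 2806 and 2712 in Control and 1375, 1349, 1388, 1190.1 and 1713 in AdCKO. The highest AdCKO library, replicate 5, lay well below the lowest Control library, and the mean fell from 2878 ± 218 to 1403 ± 191 (limma log2 change -1.04, SE 0.10, adjusted p = 1.8e-06). Of the annotated exon bases of Crat, 8.72% overlap other genes on the opposite strand. Crot ranged from 178 to 223 and from 113 to 123 without overlap (limma log2 change -0.77, adjusted p = 2.91e-06).

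Acyl-CoA enters the peroxisome through ABC transporters, which act as pairs of half-transporters. Abcd3 measured 1546, 1094, 1213, 1197 and 1391 in Control and 523, 482, 667, 465 and 655 in AdCKO. The groups did not overlap, and the mean fell from 1288 ± 179 to 559 ± 96.1 (limma log2 change -1.21, SE 0.13, adjusted p = 4.2e-06). Abcd2 measured 139, 219, 248, 152 and 158 in Control and 165, 193, 102, 189 and 118 in AdCKO. Its groups overlapped over most of their range, with a log2 fold change of -0.26 (95% interval -0.71 to 0.19, limma adjusted p = 0.278). The 2 lowest AdCKO values of Abcd2 were those of replicates 3 and 5, the libraries with low skeletal muscle markers. With the skeletal muscle score as a covariate, Abcd2 was called lower (limma log2 change -0.70, adjusted p = 0.00773), and with only AdCKO replicates 3 and 5 its log2 fold change was -0.70 (limma adjusted p = 0.0156).

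The beta-oxidation spiral begins with an acyl-CoA oxidase, the step that yields hydrogen peroxide. Acox2, the oxidase of bile acid precursors and branched chains, rose. It measured 15.2, 27.5, 25.9, 24.6 and 19.7 in Control and 50.6, 43.0, 46.1, 51.2 and 63.6 in AdCKO. No AdCKO library was as low as any Control library, and the mean rose from 22.6 ± 5.06 to 50.9 ± 7.85 (limma log2 change 1.15, SE 0.16, adjusted p = 3.61e-05). Even so, its AdCKO level stayed below that of Acox3, another branched-chain oxidase. Acox3 measured 189.6, 224, 197, 181 and 198 in Control and 179.8, 194, 186, 195 and 179 in AdCKO. Its groups overlapped (log2 fold change -0.08, 95% interval -0.23 to 0.07, limma adjusted p = 0.311).

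The following steps are shared by the bifunctional enzymes Ehhadh and Hsd17b4. Ehhadh ranged from 688 to 1098 and from 428 to 611 without overlap (limma log2 change -0.79, adjusted p = 0.000343). Hsd17b4 ranged from 931 to 1052 and from 642 to 745 without overlap (limma log2 change -0.55, adjusted p = 1.13e-05). Both enzymes were called lower as deposited, and neither was called after rescaling to 1 total, where their log2 fold changes were -0.31 and -0.07.

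Thiolases release the shortened chain, and here the neighbouring genes Acaa1a (chr9:119250412-119259413, plus strand) and Acaa1b (chr9:119057161-119066211, minus strand) moved in opposite directions. Acaa1a measured 485, 504, 481, 479 and 479 in Control and 458, 429, 423, 401 and 392 in AdCKO. Acaa1b measured 385, 302, 306, 383 and 405 in Control and 766, 678, 715, 566 and 578 in AdCKO. Neither gene's groups overlapped, and Acaa1a was the more abundant in every Control library and Acaa1b in every AdCKO library. Acaa1b rose from 356 ± 48.1 to 661 ± 87.0 (limma log2 change 0.89, SE 0.11, adjusted p = 2.1e-05). Acaa1a went from 485 ± 10.4 to 421 ± 26.0 (limma log2 change -0.21, SE 0.06, adjusted p = 0.00866), but its log2 fold change was 0.27 after rescaling to 1 total. Its call was lost with any library but AdCKO replicate 1 left out (adjusted p up to 0.0234). The coding sequences of these genes are identical at 96.5% of 1275 positions, and 34.1% of 50-base windows of Acaa1a and 35.5% of those of Acaa1b occur in the other, so the split of reads between them is uncertain. In addition, 11.4% of the annotated exon bases of Acaa1b overlap Dlec1 and 3.67% of those of Acaa1a overlap Myd88, each on the opposite strand. Scp2, a thiolase for branched chains that also gives a sterol carrier protein, ranged from 2147 to 2334 and from 1569 to 1804 without overlap (limma log2 change -0.42, adjusted p = 0.000149). Scp2 was the most abundant of the 32 genes in AdCKO, and its log2 fold change was 0.059 with the same total and 0.050 with quantile normalization.

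Ether lipid synthesis starts with Gnpat and Agps in the peroxisome, and Far1 and Far2 supply the fatty alcohol. Gnpat (chr8:127386933-127413957, plus strand) measured 1003, 999.8, 971, 969 and 983 in Control and 541, 521, 514, 512 and 593 in AdCKO. The spread within groups was narrow and they did not overlap, and the mean fell from 985 ± 15.9 to 536 ± 33.7, or 54.4% of Control (limma log2 change -0.88, SE 0.06, adjusted p = 1.7e-07). Agps, which puts the ether bond in place, measured 42.1, 29.5, 36.9, 40.8 and 37.1 in Control and 40.1, 33.4, 40.7, 36.7 and 33.8 in AdCKO. Its groups overlapped, with a log2 fold change of -0.01 (95% interval -0.23 to 0.22, limma adjusted p = 0.959). Far1 (chr7:120657348-120714402, plus strand), the reductase regarded as rate-limiting for plasmalogen synthesis, measured 22.4, 21.1, 22.6, 20.7 and 24.3 in Control and 46.3, 41.4, 43.6, 45.7 and 38.6 in AdCKO. Far1 rose without overlap from 22.2 ± 1.41 to 43.1 ± 3.18 (limma log2 change 0.93, SE 0.08, adjusted p = 6.95e-07). Far2 measured 9.33, 6.28, 7.09, 8.21 and 10.2 in Control and 9.89, 8.99, 11.3, 8.61 and 6.52 in AdCKO. Its groups overlapped (exact two-sided permutation test on the values, p = 0.452).

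**Figure D3:**
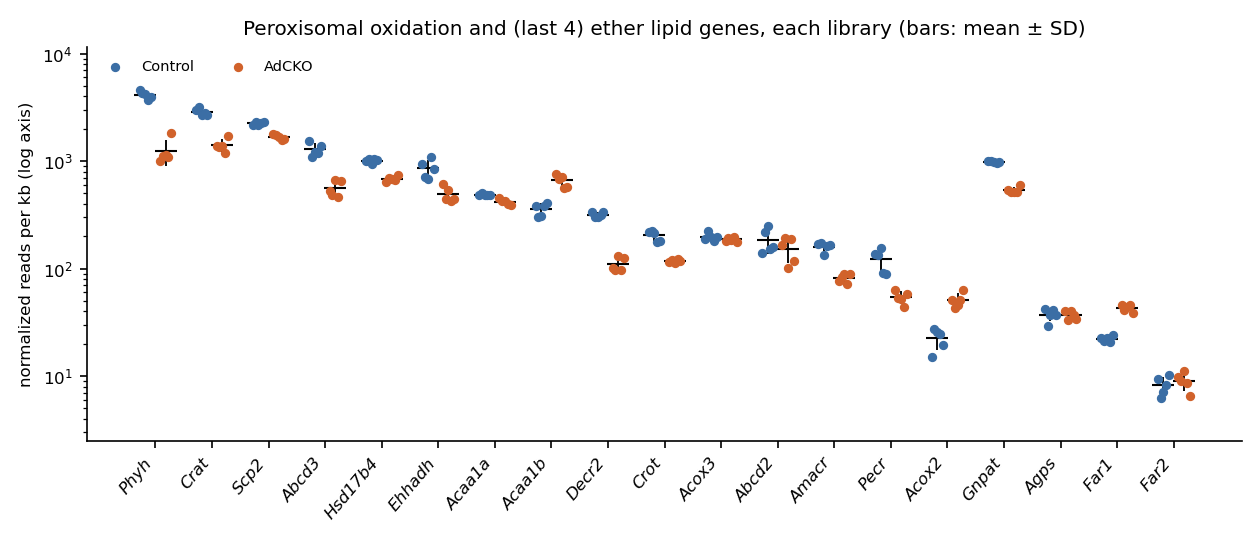
Normalized reads per kb (log axis) of the 15 oxidation genes and, at the right, the 4 ether lipid genes in each library, with the mean ± SD of 5 mice per group. Phyh fell from a mean of 4138 to 1233, while Acox2, Acaa1b and Far1 were higher in every AdCKO library. After rescaling to 1 total, Acaa1a, Acox3, Abcd2, Scp2 and Agps changed direction.

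Related genes that share a step were also compared as a ratio within each library, which a scaling factor per library leaves unchanged apart from the pseudocount of 1. An exact permutation test over libraries (two-sided) was run on each of the 5 pairs, with adjustment over them. Acox2 over Acox3 rose from 0.117 to 0.274, a difference of 1.23 on the log2 scale (exact p = 0.0079, the smallest that 5 against 5 allow, adjusted p = 0.0132). Acaa1a over Acaa1b went from 1.37 to 0.641, a difference of -1.10 (exact p = 0.0079, adjusted p = 0.0132). Far1 over Far2 rose from 2.55 to 4.43, a difference of 0.80 (exact p = 0.0079, adjusted p = 0.0132). In these 3 pairs the ratios of the groups did not overlap. Abcd2 over Abcd3 went from 0.140 to 0.270, a difference of 0.95 that did not pass after adjustment (exact p = 0.0476, adjusted p = 0.0595). Pex11a over Pex11g went from 3.33 to 3.13, a difference of -0.09 (exact p = 0.548, adjusted p = 0.548).

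**Figure D4:**
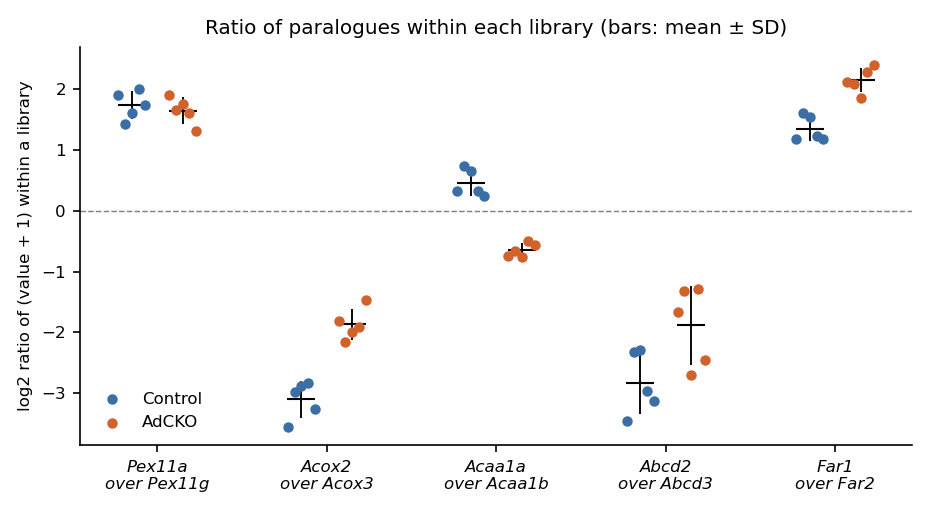
Log2 ratio of (value + 1) between related genes within each library, with the mean ± SD of 5 mice per group. The groups are apart for Acox2 over Acox3, Acaa1a over Acaa1b and Far1 over Far2, and Acaa1a over Acaa1b crosses the dashed line of equal level, from 0.46 to -0.64.

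Related genes outside the 32 were read from lists of the same pathways, in the same fit. Their splits after rescaling to 1 total are given beside each. Of 15 other tested biogenesis and division genes, 11 were lower and 1 was higher, with a median log2 fold change of -0.34 (3 lower and 4 higher at 1 total). Among those with the smallest p were Acbd5, which tethers peroxisomes to the endoplasmic reticulum (-0.98, limma adjusted p = 1.4e-07), the mitochondrial fission protein gene Mtfp1 (-1.06) and Acbd4 (-0.91). The tether partner Vapa rose (0.47). The related gene Vapb, named after its value was seen, was called lower (-0.29, limma adjusted p = 0.00125). At 1 total Vapb was at 0.19 and not called (limma adjusted p = 0.0127). Not called, and named here after their values were seen, were Fis1 (0.06), Trim37 (-0.0028) and Tmem135 (-0.25, limma adjusted p = 0.0169). Of 30 other tested genes of peroxisomal oxidation, 23 were called lower and 2 higher (median -0.74), and 15 lower and 5 higher at 1 total. Among those with the smallest p were the enoyl-CoA isomerase Eci3 (-1.31, limma adjusted p = 4.97e-08), Zadh2 (-1.54) and the NADH diphosphatase Nudt12 (-1.40), while Acsl4, an acyl-CoA synthetase that prefers arachidonic acid, rose (0.86), as did Acbd3 (0.32).

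A list of matrix enzymes, among them those that remove peroxide, held 23 other tested genes. Of these, 14 were called lower and 4 higher (median -0.49), and 8 lower and 7 higher of 22 at 1 total. Some of them, such as Mpv17 and Fndc5, do not encode peroxisomal matrix proteins, so the counts do not describe the matrix alone. The glutathione transferase Gstk1 (-1.14, limma adjusted p = 1.03e-07), the transketolase Tkt of the pentose phosphate pathway (-2.35), Mpv17 (-0.84) and Ddo, which oxidizes D-aspartate (-1.30), were lower with the smallest p. The 4 that rose were Fndc5 (2.03, limma adjusted p = 6.19e-06), a gene well expressed in muscle, the soluble epoxide hydrolase Ephx2 (0.79), Lacc1, known from macrophages (0.99), and the peroxiredoxin Prdx1 (0.35). Catalase (Cat), named after its value was seen, fell from 3573 ± 225 to 2566 ± 401 (-0.49, limma adjusted p = 0.00125), and was at -0.0068 at 1 total. A list of later or related steps of ether lipid metabolism held 13 tested genes. Of these, 4 were lower, 3 were higher and 6 were not called (median 0.10), and 4 lower and 9 higher at 1 total. Some, Tlcd1 among them, do not encode ether lipid enzymes, so the counts do not describe ether lipid steps alone. Lower were Tlcd1 (-1.56, limma adjusted p = 1.98e-08), Chpt1, which makes choline glycerophospholipids (-1.26), Agmo, which cleaves the ether bond (-1.07), and Dhrs7b, the reductase after Agps (-0.72). Higher were Tmem86a, which breaks down lysoplasmalogens (0.96, limma adjusted p = 1.68e-05), Lpcat4 (0.53) and Tmem189, the desaturase that makes the vinyl ether bond (0.41). With only AdCKO replicates 3 and 5, the calls of Acbd3, Lacc1, Prdx1, Lpcat4 and Tmem189 were lost (limma adjusted p from 0.0183 to 0.0368) with fewer libraries in the fit. Their log2 fold changes there were 0.41, 0.76, 0.39, 0.45 and 0.32, in that order, while Fndc5 was at 2.41 (limma adjusted p = 9.19e-07).

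The nuclear receptors PPAR and RXR bind as pairs and drive many genes of peroxisomal oxidation. Of the 6 genes, 3 were lower and 0 higher, with a median log2 fold change of -0.44, and at 1 total none was called (median 0.04, limma adjusted p from 0.0245 to 0.921). The lower ones were Ppard (-0.42, limma adjusted p = 0.00388), Rxrg (-0.50, limma adjusted p = 0.00446) and Pparg (-0.47, limma adjusted p = 0.00536). Ppara, at 586 ± 122 and 415 ± 142, had a limma adjusted p of 0.0425 and was not called, nor were Rxra (-0.28, limma adjusted p = 0.0153) and Rxrb (-0.26, limma adjusted p = 0.0195). Their binding element, 2 copies of AGGTCA separated by 1 base, was searched on both strands with at most 2 mismatches in the 300 bases around each start (RefSeq, GRCm38.p6), for the 26 of 32 genes with a promoter entry. It was found in 1 of the 26 (3.85%), against 3.6% of tested genes with an entry. That gene was Acox2, with AGGACAGAGGTGA inside chr14:8258790-8259089 (minus strand). The search covered only this window.

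Single libraries led their group for many of these genes. Control replicate 2 held the highest Control value for 13 of the 32 genes, and AdCKO replicate 5 held the highest AdCKO value for 11. These libraries also had the largest totals of normalized reads in their groups (8171138 and 5843024). The share of all tested genes led by each library was not computed, so these counts cannot be read as particular to the peroxisomal genes. The oxidation sum of AdCKO replicate 5, 8706, was the highest in AdCKO. The same library had the highest brown adipocyte marker sum in AdCKO (41839) and the lowest macrophage (8070) and fibroblast (4134) sums. AdCKO replicate 4 had the lowest oxidation and biogenesis sums in AdCKO (7151 and 2958) and the lowest brown adipocyte sum (20045). With only AdCKO replicates 3 and 5, the libraries with low skeletal muscle markers, 19 of the 31 tested genes were called lower and 3 higher, against 19.7% and 18.8% of all genes, and the median log2 fold change was -0.54. In that comparison Phyh was at -1.52 (limma adjusted p = 3.93e-05), Pex6 at -0.98, Acox2 at 1.25 and Far1 at 0.86. The calls of Pex10 (-0.32), Pex11g (-0.34), Pex14 (-0.33), Pex16 (-0.43) and Acaa1a (-0.25) were lost there (limma adjusted p from 0.0319 to 0.122). The same 5 calls were lost with all 10 libraries and the skeletal muscle score as a covariate, where their log2 fold changes were -0.35, -0.37, -0.34, -0.44 and -0.25 (limma adjusted p from 0.0208 to 0.0922). In that fit 20 peroxisomal genes were called lower and 3 higher, against 22.3% and 20.6% of all genes, and biogenesis genes called lower went from 12 to 8.

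**Figure D5:**
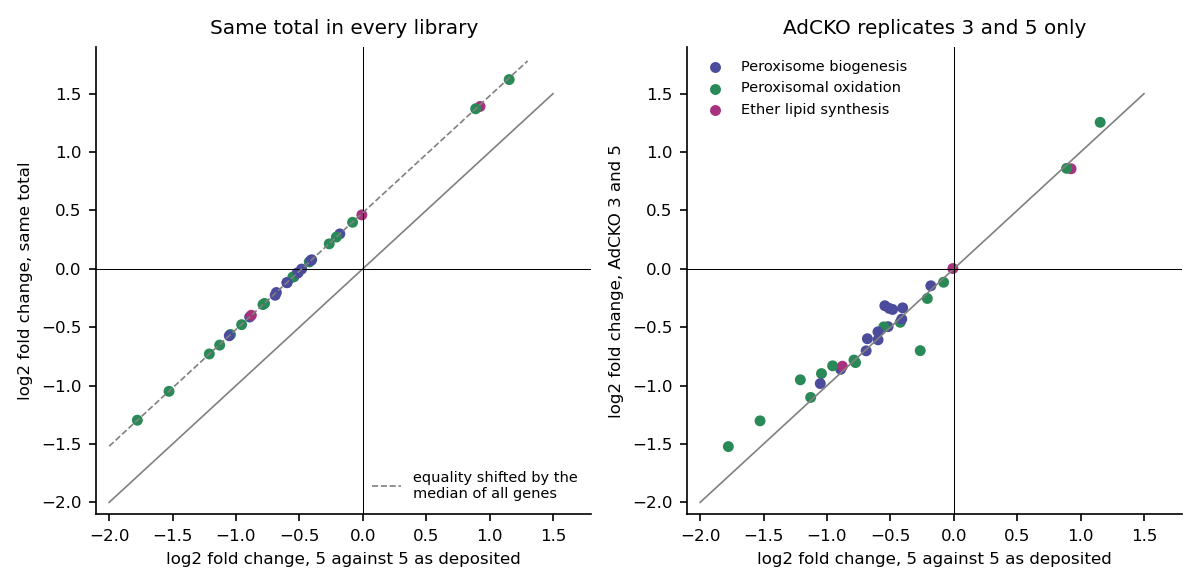
Log2 fold changes of the genes under an alternative (y axis) against those with 5 against 5 libraries as deposited (x axis), for the same total in every library (left) and for only AdCKO replicates 3 and 5 (right). The solid line is equality, and the dashed line is equality shifted by the median of all genes. At the left the points follow the dashed line, with medians of all genes of -0.01 and 0.47, and at the right they scatter around equality, with Abcd2 the lowest against it (-0.26 and -0.70).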

How the data were processed

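RNA-seq values of iBAT from 10 mice were used, with groups and replicate numbers from the sample labels. Per the paper's methods, the authors mapped polyadenylated RNA reads to mm9 by STAR, counted them over exons by iRNA-seq, and used DESeq2 for normalization. The deposited values are a signal, normalized reads per kb of exon, for 1 RefSeq transcript per gene. None was 0 (smallest 0.0532), and 23.1% to 24.6% of values per library lay within 0.1 of a whole-read step, against 20% by chance. Counts were therefore not recovered, depth is unknown, and the precision is the spread between mice. The authors' fold changes, adjusted p-values and lists of called genes were not used.

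Groups were tested two-sided with limma 3.58.1 (R 4.3.3; lmFit, then eBayes with a trend on intensity) on log2(value + 1), with Benjamini-Hochberg adjustment over 11244 genes with a mean of at least 10 in either group, at a threshold of 0.01. The test was checked on simulated data. Ratios of related genes were tested by exact permutation at 0.05. Alternatives were pseudocounts of 0.1 and 10, other filters and scalings, limma with no trend, a robust trend or array weights, a replicate block, a skeletal muscle score, an adjusted p of 0.05 and each library left out. Use of only AdCKO libraries with muscle markers under 1000 was added after seeing the data.

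The genes and lists were chosen with earlier results of these data known. Values per library are given for the 4 genes with the smallest p per role and direction, the 5 pairs and genes not called, and up to 4 called genes per direction are named from each other list, except that some are not reported here. In Gencode vM1, Pex2 is Pxmp3 and Pex11g is Pex11c. Whether counting used strand is not given in the sources used here. Plots used matplotlib 3.10.9 (Python 3.11.15).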

Additional observations from a re-analysis of the deposited data

Results flagged for a closer look

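In 3 of 74 groups of 5 libraries, a library stood apart from the others of its group by Dixon's criterion, which chance meets in about 1 of 20 groups. Pex14 in AdCKO replicate 4 was 354, against 417 to 439.7 in the other AdCKO libraries. AdCKO replicate 4 also had the lowest biogenesis sum of its group, but that sum includes Pex14 and is not separate from it. Acaa1a in Control replicate 2 was 504, against 479 to 485 in the other Control libraries. Phyh in AdCKO replicate 5 was 1821, against 1002 to 1133 in the other AdCKO libraries, and this library also had the highest brown adipocyte marker sum of its group. No cause was tested.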

How the results depend on the processing

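Scaling moved the results most. Once all libraries were set to 1 total, genes called higher in AdCKO rose from 2879 to 7013 and genes called lower in AdCKO fell from 3152 to 1094. Peroxisomal genes called then numbered 8 higher and 10 lower, with 1 higher and 2 lower for biogenesis, 4 higher and 7 lower for oxidation and 3 higher for ether lipids. Far2, not tested as deposited, was among these 3. The log2 fold change turned positive for Pex5 (0.30), Pex14 (0.078), Pex16 (0.071), Acox3 (0.40), Acaa1a (0.27), Abcd2 (0.21), Scp2 (0.059) and Agps (0.46). With quantile normalization it was 0.050 for Scp2, and the ratio of Pex11a over Pex11g turned to 0.058. Agps, at -0.01 as deposited, was at -0.19 with quantile normalization, at 0.020 with the skeletal muscle covariate, at 0.0028 with low-muscle AdCKO libraries only, and between -0.087 and 0.039 with 1 library left out. The remaining alternatives gave 19 to 25 peroxisomal genes lower and 3 higher. Pex5 was called lower only at an adjusted p under 0.05, and higher with all libraries at 1 total (adjusted p = 0.00384). Leaving out 1 library gave 20 to 22 lower.

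Same-numbered Control and AdCKO libraries did not deviate together (correlations from -0.268 to 0.098), and the labels name no pairing. These correlations cannot exclude that same-numbered mice shared a litter or were processed together. With the replicate block 22 peroxisomal genes were lower and 3 higher, and the calls of Pex11g (adjusted p = 0.01) and Acaa1a (adjusted p = 0.0234) were lost. The ratios of Acox2 over Acox3 (1.23), Acaa1a over Acaa1b (-1.10) and Far1 over Far2 (0.80) did not pass in the block (adjusted p = 0.104), since an exact sign-flip test of 5 pairs cannot go below 0.0625. Depth is unknown, and a gene not called may have changed within its printed interval.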
